A study of Homo sapiens with 16 samples.

Results

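Gastrin-releasing peptide (GRP), neuromedin B (NMB) and their receptors GRPR and NMBR form the bombesin-like peptide family in humans. These 4 genes were followed here among the 18495 probe sets of an exon array study of human embryonic stem cells treated with activin A. The family was chosen on the rise of GRP over the days of treatment, so the differences of GRP between days are given as a description with no test. GRPR, NMB and NMBR entered by family membership and were tested. GRP, NMB and NMBR each had 1 probe set of their own, and the 1 probe set of GRPR also carries the symbol MAGEB17, so every GRPR value is that of a shared probe set.

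The cells were H9, an established human embryonic stem cell line, at a single range of passages. Day 0 cells were undifferentiated and grew in medium conditioned by mouse feeder cells with basic FGF at 8 ng/ml. The other groups had received activin A at 100 ng/ml for 1, 3 or 5 days in RPMI, with serum raised from 0% to 0.2% and then 2%. Day of treatment, activin, medium and serum all differ between day 0 and the later groups, and cannot be told apart. The biological samples numbered 4 for undifferentiated cells, 3 each for the first and the middle time point and 4 for the last, and replicate 4 of days 0 and 5 was hybridised to 2 arrays each. The labels call the samples biological replicates of 1 cell line without saying whether cultures were started separately, so p-values measure the spread between these samples.

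GRP and NMB are short secreted peptides with an amidated end, cut from larger precursors in the secretory pathway. GRP acts mainly through GRPR and NMB mainly through NMBR, both G protein-coupled receptors that signal through Gq, phospholipase C, calcium and protein kinase C. In the body GRP is known from nerves of the gut, from neuroendocrine cells of the fetal lung and as a growth factor of some tumours, and lung and gut epithelium both arise from endoderm.

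The labelled stages were checked against marker genes before the members were read. Of 14 definitive endoderm markers, 13 were higher at day 5 than at day 0 and 0 lower by limma's adjusted test (11 to 14 higher when 1 sample was left out). Over all probe sets 2.56% were higher and 2.89% lower. SOX17, an endoderm transcription factor, rose by 4.88 ± 1.00 (SE; log2 difference, limma adjusted p = 0.012) and FOXA2, another, by 3.00 ± 0.50 (adjusted p = 0.00381). Of 9 pluripotency markers with a probe set of their own, 3 were lower (1 to 4 when 1 sample was left out). PRDM14, a transcription factor of pluripotent cells, fell by 2.58 ± 0.40 (limma adjusted p = 0.00251). DNMT3B, a DNA methyltransferase, fell by 1.83 (adjusted p = 0.0242), with the call lost in 4 of the 14 fits that leave out 1 sample. TERT, the catalytic subunit of telomerase, fell by 1.79 (adjusted p = 0.0233), lost in 7 of the 14. DPPA4 differed by -1.15 (adjusted p = 0.0986) and LIN28A by -0.34 (adjusted p = 0.748). The summed intensity of the 14 endoderm markers was 3671.8 to 8292.8 at day 0 and 50556.2 to 75879.0 at day 5. At day 3 it was 4702.0 in replicate 2, at the level of day 0, against 55220.3 and 59601.4 in replicates 1 and 3. The summed intensity of the 9 pluripotency markers was 25966.8 to 29922.0 over the day 3 samples, all below the 38008.7 to 53372.9 of day 0. In day 3 replicate 2 the log2 value of DNMT3B was 11.66, against 13.04 to 13.43 at day 0. DPPA4 there was 13.41, against 12.99 to 13.20 at day 0. The library labelled day 3 replicate 2 also had the lowest median correlation with its own group, 0.83. Counts and values that involve day 3 are given with and without it.

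The 250 bases before the start of the GRP and NMB genes are shown first, because these are the 2 ligand genes and GRP is the one that led to the choice of the family. They are RefSeq sequences on GRCh38.p14, at chr18:59219908-59220157 (plus strand) for GRP and chr15:84658200-84658449 (minus strand) for NMB, written 5′ to 3′ towards the start. Capitals mark the letters TATAAA, a core promoter element that positions transcription, and the core of a cyclic AMP response element, TGACG, which reads CGTCA on the other strand.
GRP: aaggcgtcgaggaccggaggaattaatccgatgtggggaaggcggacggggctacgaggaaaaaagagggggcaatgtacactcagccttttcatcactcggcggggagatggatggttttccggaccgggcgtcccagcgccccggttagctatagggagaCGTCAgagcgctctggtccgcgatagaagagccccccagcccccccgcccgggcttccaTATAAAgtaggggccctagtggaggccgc
NMB: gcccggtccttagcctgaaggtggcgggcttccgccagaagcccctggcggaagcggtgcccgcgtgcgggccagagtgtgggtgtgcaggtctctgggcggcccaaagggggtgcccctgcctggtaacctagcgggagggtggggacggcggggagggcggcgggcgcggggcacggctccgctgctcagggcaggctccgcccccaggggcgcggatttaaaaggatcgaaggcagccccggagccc
The GRP window holds TATAAA with its first base 29 bases before the start and CGTCA at 88 bases before it. The NMB window holds neither and is richer in G and C, at 74.0% against 62.4%. The core TGACG is not particular to GRP in the family. It is also in the windows of GRPR, 82 bases before the start, and of NMBR, 47 bases before it. Over 35116 RefSeq promoter windows of the same length, TATAAA is found in 10.7% and TGACG in 21.2%, both strands searched. The GC box GGGCGG, found in 42.6% of windows, is present in the GRP window once, 44 bases before the start, and in the NMB window at 154, 93 and 50 bases. The full cyclic AMP response element TGACGTCA and the SMAD, forkhead, GATA, T-box and SOX sites were also searched. They had no match in the GRP or NMB window. These matches describe letters and say nothing of which factors bind there.

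GRP, the ligand gene, had almost no signal in undifferentiated cells and a strong one at day 5. At day 0 its intensity was 7.96, 11.4 and 9.68 in replicates 1 to 3, and 7.46 and 6.27 on the 2 arrays of replicate 4. At day 1 it was 3.77, 18.7 and 18.1. At day 3 it was 312 in replicate 1, 23.3 in replicate 2 and 118 in replicate 3. At day 5 it was 761, 1848 and 342 in replicates 1 to 3, and 777 and 731 on the arrays of replicate 4. All day 5 samples lay above every sample of the other days, while days 0 and 1 overlapped. The day 0 values all fell under 3.83 on the log2(intensity + 1) scale, which is the lowest 5th percentile of any array, so the signal there was at the dim end of the arrays. Day 5 replicate 2, which had the highest GRP, had a median correlation of 0.858 with its group, against 0.934 to 0.939 in the other day 5 samples.

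On the log2(intensity + 1) scale GRP averaged 6.31 higher at day 5 than at day 0. Without day 5 replicate 2 it averaged 5.89 higher. The day 3 mean was 3.30 above day 0, and 4.30 without day 3 replicate 2. Day 1 differed from day 0 by 0.31. The day 5 mean was 3.01 above day 3, and 2.01 without day 3 replicate 2. Because the day 0 level is dim, the size depends on the constant added before the log. With 16 in place of 1, the difference between days 5 and 0 was 4.995. Groups that do not overlap, with the later day higher, were seen for 3.27% of all probe sets at day 3 and 6.07% at day 5 against day 0; as GRP was chosen on this contrast, nothing is read from its place among them. In RNA of whole cultures, fewer cells of a type and less RNA per cell cannot be told apart, so these levels do not say how many cells express GRP.

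**Figure D1:**
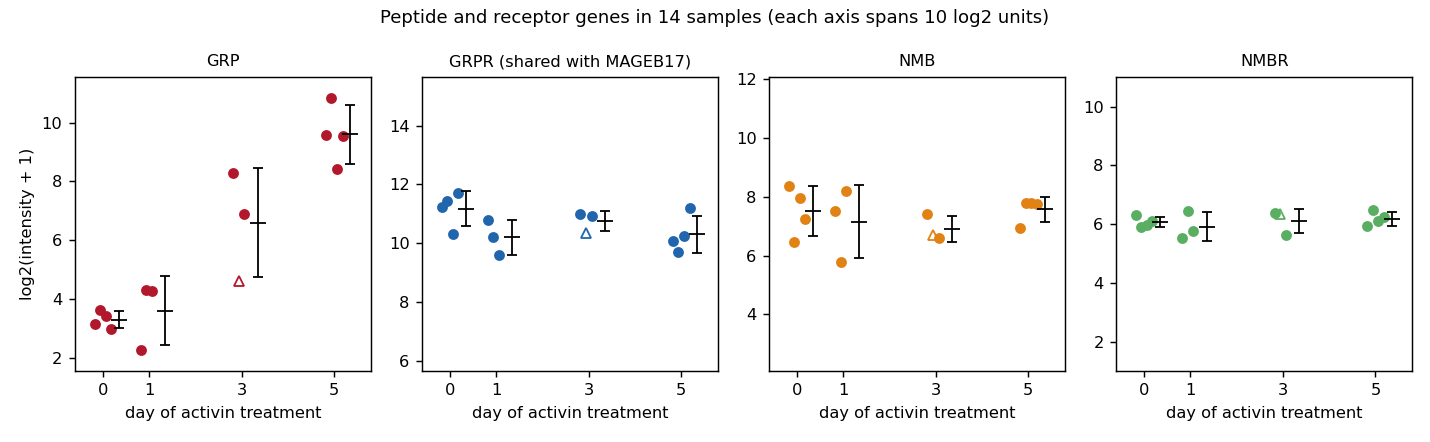
Log2(intensity + 1) of GRP, GRPR, NMB and NMBR in each of 14 biological samples (vertical axes, each spanning 10 log2 units) by day of activin treatment (horizontal axes), with the mean and SD of each group as bars. The open triangle is day 3 replicate 2. GRP runs from 2.25 to 10.85, while the days overlap for GRPR, NMB and NMBR.

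GRPR, the receptor of GRP, gave a bright signal at all stages on its shared probe set. Its log2 values were 11.24, 11.43, 10.32 and 11.71 at day 0. They were 10.77, 10.22 and 9.60 at day 1, 10.98, 10.35 and 10.92 at day 3, and 10.06, 9.70, 10.25 and 11.18 at day 5. The highest values were at day 0, and every pair of days overlapped. GRPR differed from day 0 by -0.88 ± 0.38 at day 5 (limma adjusted p = 0.26, unadjusted p = 0.0401, unadjusted 95% interval -1.71 to -0.05). It differed by -0.98 ± 0.42 at day 1 (adjusted p = 0.752, unadjusted p = 0.0349) and by -0.42 ± 0.42 at day 3 (adjusted p = 0.867). None of these passed the adjusted threshold, and the part of MAGEB17 in the signal was not tested.

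NMB, the other ligand gene, had a moderate signal at all stages. Its log2 values were 8.38, 6.47, 7.98 and 7.24 at day 0 and 7.51, 5.78 and 8.19 at day 1. They were 7.41, 6.70 and 6.59 at day 3, and 6.95, 7.81, 7.80 and 7.76 at day 5. The days overlapped throughout. At day 5 the difference from day 0 was 0.06 ± 0.51 (limma adjusted p = 0.97), with a 95% interval of -1.04 to 1.17. At day 1 it was -0.36 ± 0.55 (adjusted p = 1), with an interval of -1.55 to 0.84. At day 3 it was -0.62 ± 0.55 (adjusted p = 0.851), with an interval of -1.81 to 0.58.

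NMBR, the receptor of NMB, was dim and stayed within a narrow range. Its log2 values were 6.31, 5.91, 5.97 and 6.10 at day 0 and 5.53, 6.46 and 5.77 at day 1. They were 6.36, 6.33 and 5.64 at day 3, and 5.92, 6.48, 6.09 and 6.24 at day 5. The days overlapped. Its difference from day 0 was -0.15 ± 0.28 at day 1 (limma adjusted p = 1), 0.04 ± 0.28 at day 3 (adjusted p = 0.987) and 0.11 ± 0.26 at day 5 (adjusted p = 0.874, 95% interval -0.44 to 0.67).

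Over the 6 comparisons between days, GRPR, NMB and NMBR gave 18 tests, of which 0 passed limma's adjusted threshold and 2 had an unadjusted p under 0.05. The share of all probe sets that passed was 0.00541% for day 1 against day 0, 0.027% for day 3 against day 0 and 5.46% for day 5 against day 0. It was 0.0324% for day 3 against day 1, 0.0973% for day 5 against day 3 and 3.33% for day 5 against day 1. Without day 3 replicate 2 the shares against day 0 were 0.249% (day 1), 3.19% (day 3) and 8.73% (day 5), and the 3 genes again gave no call. The other comparisons without it gave 2.73% for day 3 against day 1, 0.157% for day 5 against day 3 and 6.11% for day 5 against day 1. The limma F test over the days gave adjusted p = 0.497 for GRPR, 0.943 for NMB and 0.985 for NMBR.

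The repeat arrays give a rough measure of the measurement error, from 1 pair in each of 2 groups. For GRP the SD of the 2 arrays of replicate 4 was 0.15 at day 0 and 0.062 at day 5, against an SD between the 4 samples of 0.29 and 0.99. For GRPR it was 0.040 and 0.032, against 0.60 and 0.63. For NMB it was 0.66 and 0.52, against 0.84 and 0.42. For NMBR it was 0.41 and 0.093, against 0.18 and 0.24. The pair's SD was thus below that between samples except for NMB at day 5 and NMBR at day 0. Over all probe sets the median gap between the 2 arrays was 0.17 at day 0 and 0.22 at day 5.

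**Figure D2:**
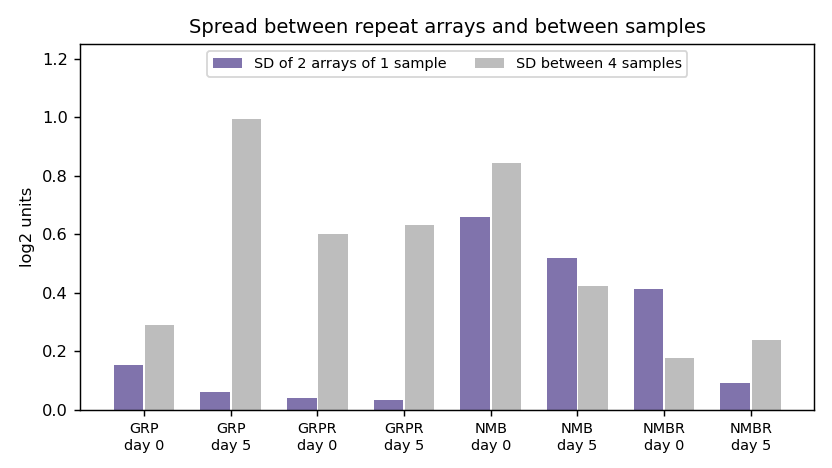
SD of the 2 arrays of biological replicate 4 (purple) and SD between the 4 biological samples (grey), in log2 units, for each gene at days 0 and 5. The purple bar is the lower one for GRP and GRPR on both days, and the higher one for NMB at day 5 (0.52 against 0.42) and NMBR at day 0 (0.41 against 0.18).

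The genes around the peptides were taken in 7 lists by role, with 94 measured genes. At day 5 against day 0, 12 of them (12.8%, against 5.46% of all probe sets) passed limma's test, 5 higher and 7 lower, beside 2.56% of all probe sets higher and 2.89% lower. The median difference over the 94 genes was -0.15, and -0.02 over all probe sets. At days 1 and 3, 0 of 94 passed, beside 0.00541% and 0.027% of all probe sets. On each of these days 15 had an unadjusted limma p under 0.05. The share of all probe sets at that level was not counted, so nothing is read from the 15. Without day 3 replicate 2, 11 passed at day 3 (11.7%, against 3.19% of all probe sets), 9 higher and 2 lower. In the same setting 18 passed at day 5 (19.1%, against 8.73% of all probe sets), 9 higher and 9 lower. The lists were written with earlier results of these data known.

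Of the receptors related to GRPR, 1 of 4 measured passed at day 5, and it fell (1 higher and 1 lower without day 3 replicate 2; 0 to 2 in all when any 1 sample was left out). EDNRB, the endothelin B receptor, fell by 1.33 ± 0.35 (limma adjusted p = 0.0434). Its call was lost without any 1 of the day 0 or day 5 samples or without day 1 replicate 1, with adjusted p from 0.0645 to 0.114. BRS3, the orphan member of the bombesin receptor family, was dim in all samples and differed by -0.06 ± 0.45 (adjusted p = 0.971).

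Of 13 peptide processing genes, 1 rose at day 5 and 0 fell. CPE, carboxypeptidase E, trims basic residues from peptide precursors. Its log2 value was 8.44 to 9.02 at day 0, 9.13 to 9.53 at day 1, 9.12 in day 3 replicate 2 and 11.45 and 11.69 in the other day 3 samples, and 11.64 to 12.08 at day 5. CPE rose by 3.11 ± 0.44 at day 5 (limma adjusted p = 0.00131), and the call stood without each of the 14 samples in turn. PAM, which makes the amidated end that GRP and NMB both need, differed by 0.11 ± 0.22 (adjusted p = 0.859). The signal peptidase subunit genes SEC11C, near GRP, and SEC11A, next to NMB, differed by 0.55 ± 0.50 (adjusted p = 0.664) and 0.03 ± 0.22 (adjusted p = 0.965). PCSK1 and PCSK2 were not analysed here.

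Of 9 genes for peptide breakdown, 1 fell at day 5 and 0 rose. NLN, the peptidase neurolysin, went from 10.87 to 11.36 at day 0 to 9.67 to 10.28 at day 5, without overlap, and so fell by 1.13 ± 0.20 (limma adjusted p = 0.00617). MME, the membrane peptidase neprilysin that degrades bombesin-like peptides, differed by 1.03 ± 0.37 (adjusted p = 0.141), and passed at 0.0185 without day 3 replicate 2. ECE1, an endothelin-converting enzyme, differed by -0.23 (adjusted p = 0.884). Leaving out 1 sample gave 1 to 2 calls in this list.

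Of 25 Gq and phospholipase C genes, 1 rose and 2 fell at day 5, with a median difference of -0.37. With day 3 replicate 2 left out, 2 rose and 4 fell, and the calls numbered 2 to 6 when any 1 sample was left out. PRKCB, a protein kinase C, fell by 1.88 ± 0.34 (limma adjusted p = 0.00662). PLCB2, a phospholipase C, fell by 1.46 ± 0.34 (adjusted p = 0.0256), with the call lost without day 0 replicate 1, 2 or 4 or day 5 replicate 1 (adjusted p 0.0621 to 0.083). GNG2, a G protein gamma subunit, rose by 1.26 ± 0.21 (adjusted p = 0.00417). The genes nearest to the receptors did not pass: GNAQ differed by -0.13 ± 0.47 (adjusted p = 0.929), GNA11 by 0.28 (adjusted p = 0.848), PLCB1 by 0.12 (adjusted p = 0.842), PLCB3 by -0.63 (adjusted p = 0.587) and PRKCA by -0.80 (adjusted p = 0.277).

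Of 13 desensitisation genes, 1 rose and 1 fell at day 5. RGS5, which speeds the switching off of Gq and Gi, was 8.80 to 9.68 at day 0 and 12.52 to 13.13 at day 5, and rose by 3.46 ± 0.47 (limma adjusted p = 0.00103). GRK3, a receptor kinase, fell by 1.10 ± 0.21 (adjusted p = 0.00879), and GRK2 differed by -0.17 (adjusted p = 0.906). ARRB2 was not analysed here.

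Of 20 calcium and ERK early response genes, 2 rose and 1 fell. DUSP4, a phosphatase induced by ERK, rose from 7.08 to 8.14 at day 0 to 9.54 to 10.65 at day 5, by 2.59 ± 0.33 (limma adjusted p = 0.0008). ATF3 rose by 1.50 ± 0.32 (adjusted p = 0.0147). EGR1 fell by 1.77 ± 0.45 (adjusted p = 0.0372), lost without day 1 replicate 3 or any 1 sample from days 0 and 5 (adjusted p 0.0512 to 0.122). FOS differed by -0.47 (adjusted p = 0.463). With day 3 replicate 2 left out, 3 of the 20 rose and 1 fell, and the calls numbered 2 to 4 when any 1 sample was left out. Of 10 genes of EGF receptor transactivation, ERBB3 alone passed and fell by 1.54 ± 0.40 (adjusted p = 0.0437). That call was lost without any day 0 sample, day 1 replicate 3, day 3 replicate 1 or 3, or day 5 replicate 1 or 2 (adjusted p 0.0541 to 0.107).

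**Figure D3:**
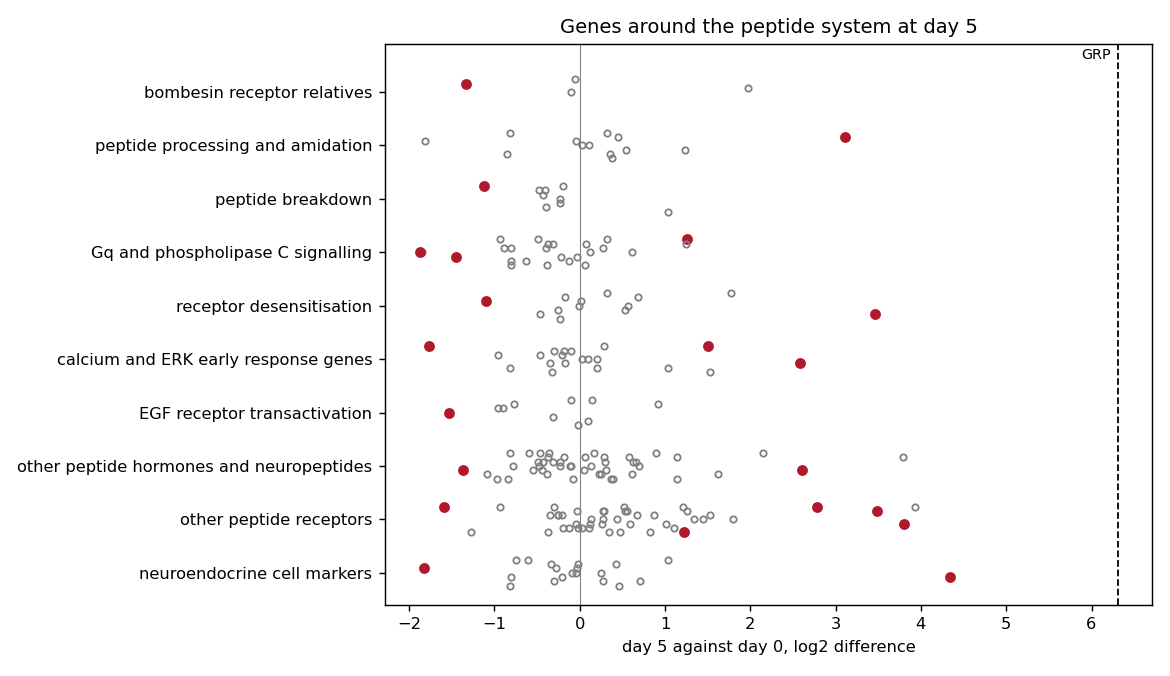
Log2 difference between day 5 and day 0 (horizontal axis) for each measured gene of 10 lists (rows of points); filled red points passed limma's adjusted test and open points did not. The dashed line is GRP at 6.31, to the right of every other point. As GRP was chosen for its rise, nothing is read from this place.

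Other peptide genes were set beside GRP. Of 46 measured, 1 rose at day 5 and 1 fell, with a median difference of -0.01, beside 5.46% of all probe sets called. Without day 3 replicate 2, 3 rose and 1 fell, and the calls numbered 2 to 4 when any 1 sample was left out. NMU, neuromedin U, rose from a mean of 8.69 to 11.30, by 2.61 ± 0.44 (limma adjusted p = 0.00386), and APLN, apelin, fell by 1.37 ± 0.28 (adjusted p = 0.011). Of 45 other peptide receptors, 4 rose and 1 fell (6 and 1 without day 3 replicate 2). MLNR, the motilin receptor, rose by 2.78 ± 0.38 (adjusted p = 0.0011). CCKBR, a receptor of gastrin and cholecystokinin, rose by 3.80 ± 0.99 (adjusted p = 0.0411), lost without any sample of day 0, 1 or 5 (adjusted p 0.0562 to 0.114). CALCR, the calcitonin receptor, rose by 3.49 ± 0.82 (adjusted p = 0.0254), lost without replicate 1 or 3 of day 5 or any 1 of the day 0 samples (adjusted p 0.0637 to 0.0757). The number of these receptors past the test ran from 1 to 7 when each sample was left out.

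Markers of neuroendocrine cells, which are a source of GRP in the body, were read beside GRP. Of 20 measured, 1 rose and 1 fell at day 5 (2 and 1 without day 3 replicate 2), with a median difference of -0.06. Over all probe sets 5.46% passed, and 8.73% without that sample. These shares also stand beside the neural ectoderm and mesoderm counts below. The summed intensity of the 20 neuroendocrine markers was 16032.5 to 17026.8 at day 0 and 13323.3 to 16414.6 at day 5. CHGA and CHGB, granule proteins of these cells, differed by -0.60 (limma adjusted p = 0.327) and -0.34 (adjusted p = 0.657). PAX6, a transcription factor of endocrine and neural cells, rose by 4.34 ± 0.43 (adjusted p = 0.000332), and SYT1, a vesicle protein, fell by 1.83 ± 0.36 (adjusted p = 0.0095). NEUROD1 and SYP were not analysed here. Of 10 neural ectoderm markers 1 rose (DLX5, by 2.87), and 2 without day 3 replicate 2. Of 9 mesoderm markers 1 rose and 1 fell (0 to 2 calls when 1 sample was left out). HAND1, a transcription factor of lateral mesoderm, rose by 2.05 (limma adjusted p = 0.0486), lost in 11 of the 14 fits that leave out 1 sample, and KDR, a receptor of VEGF, fell by 1.23 (adjusted p = 0.0239), lost in 6.

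Markers of extraembryonic endoderm were read in the same way. Of 11 measured, 9 were above 0 at day 5, with a median difference of 0.51, beside -0.02 over all probe sets. The share of all probe sets above 0 was not counted. By limma's test 1 of the 11 passed (2 without day 3 replicate 2), beside 5.46% of all probe sets (8.73% without it). APOA1, an apolipoprotein of yolk sac and liver, rose by 4.37 ± 0.36 (adjusted p = 0.000174). The summed intensity of the 11 was 8742.0 to 14171.4 at day 0 (median 9484.4) and 10577.0 to 25694.5 at day 5 (median 21040.2), so the ranges overlap. The part of these cells, and of the other cell types, in the GRP signal was not tested.

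The timing of GRP was set beside that of endoderm markers, as the share of the day 5 difference reached at each earlier day. GRP had 4.87% at day 1, from a difference of 0.31 that ran from -0.04 to 0.98 when 1 sample was left out. At day 3 GRP had 52.3%, and 68.1% without replicate 2. As GRP is dim at day 0, its share depends on the constant added before the log. With 16 in place of 1 it differed from day 0 by 2.27 at day 3 and 4.995 at day 5. The marker shares were not computed with 16. Over the 14 endoderm markers the share ran from 5.01% to 105% at day 1 (median 41.5%). All were above that of GRP with all samples in, but the range of the GRP difference leaves this order uncertain. At day 3 it ran from 48.1% to 81.6% (median 65.2%), with 12 of 14 above GRP. Without replicate 2 the markers ran from 51.9% to 131% (median 99.8%), with 13 of 14 above GRP. The GRP share then rests on day 3 replicates 1 and 3, at log2 values of 8.29 and 6.90. The day 3 difference of GRP from day 0 ran from 2.45 to 4.30 when 1 sample was left out. The order at day 3 is therefore uncertain too.

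Single markers spanned these ranges. GSC, EOMES and MIXL1, genes of the primitive streak and early endoderm, had 86.0%, 105% and 103% of their day 5 difference at day 1. GATA4, an endoderm and heart transcription factor, had 5.01% at day 1, and 65.1% at day 3 (99.9% without replicate 2). SOX17 had 19.4% at day 1, and 63.2% at day 3 (103% without). FOXA2 had 40.7%, and 78.3% at day 3 (99.7% without). CXCR4, a surface marker of endoderm, had 15.0%, and 48.1% at day 3 (77.3% without). FOXA1, a relative of FOXA2, had 36.7%, and 48.8% at day 3 (51.9% without). CXCR4 with all samples and FOXA1 in both settings lay below GRP at day 3. MIXL1, CXCR4, GATA4 and FOXA1 were chosen after their values were seen. In day 3 replicate 2, where GRP was 4.60, SOX17 was 5.52, below its day 0 range of 5.64 to 6.86.

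Over the 14 samples the Pearson correlation with GRP was 0.887 for SOX17, 0.892 for CXCR4, 0.811 for FOXA2, 0.661 for GSC and 0.560 for EOMES. Without day 3 replicate 2 these were 0.907, 0.904, 0.809, 0.668 and 0.558. It was -0.331 for GRPR, 0.0761 for NMB and 0.336 for NMBR, and -0.352, 0.0477 and 0.380 without that sample. These correlations describe samples that share the days of treatment and carry no test.

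**Figure D4:**
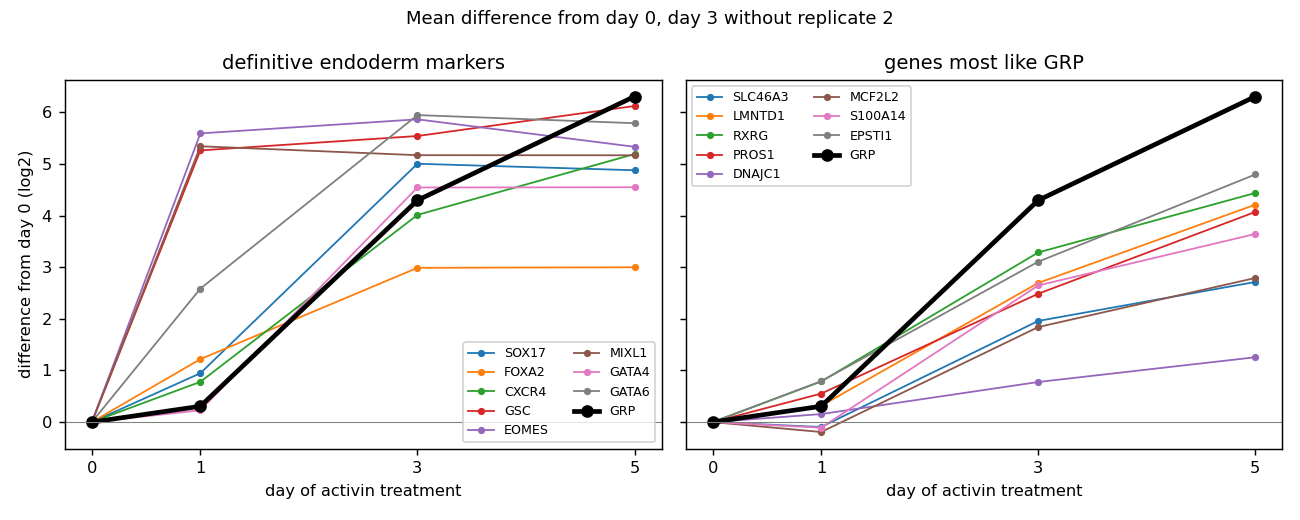
Mean log2 difference from day 0 (vertical axes) by day of activin treatment (horizontal axes), with day 3 replicate 2 left out. Left, SOX17, FOXA2, CXCR4, GSC, EOMES, MIXL1, GATA4 and GATA6, from the 14 endoderm markers. FOXA1, whose share at day 3 lay below that of GRP, is among those not drawn. Right, the 8 genes most like GRP, picked for that likeness over these samples. GRP is the thick black line in both. GRP is at 0.31 at day 1, 4.30 at day 3 and 6.31 at day 5, while GSC, EOMES and MIXL1 are above 5 at day 1.

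The genes most like GRP were those with the highest Pearson correlation with it over the 14 samples, among 14577 probe sets with 1 symbol. They were SLC46A3 (0.981), LMNTD1 (0.976), RXRG (0.965), PROS1 (0.964), DNAJC1 (0.964), MCF2L2 (0.962), S100A14 (0.957) and EPSTI1 (0.957). Without day 3 replicate 2 their correlations were 0.958 to 0.984, and 6 of these 8 stayed among the closest 8. Their differences between days 5 and 0 ran from 1.26 for DNAJC1 to 4.80 for EPSTI1. At day 3 they had 44.7% to 59.0% of their day 5 difference (61.1% to 74.0% without replicate 2). As these genes were picked for their likeness to GRP over these same samples, a timing like that of GRP follows from the choice. The least like were EPB41L4B (-0.968), HEY2 (-0.964) and ATP2A3 (-0.962), with day 5 differences of -1.98, -2.12 and -2.94. For NMB the closest genes were MOGAT1 (0.857), GALNT15 (0.842), OR5I1 (0.824) and PEAK3 (0.820), of which 1 stayed among the closest 4 without day 3 replicate 2. Of the 8 genes most like GRP, 7 had a promoter window in the RefSeq table; TATAAA was found in 0 of them, TGACG in 3 and GGGCGG in 4.

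The neighbours of the 4 genes, ordered by RefSeq on GRCh38.p14, were read for the same comparison. Near GRP on chromosome 18, SEC11C, ZNF532, MALT1, CPLX4, LMAN1 and CCBE1 differed by -0.62 to 0.63 at day 5, and 0 of the 6 passed limma's test (adjusted p 0.366 to 0.962). Near GRPR on chromosome X, CLTRN, an amino acid transporter partner 11 genes away in that order, rose by 4.97 ± 0.46 (limma adjusted p = 0.000241). ZRSR2, PIR, CTPS2, S100G and SYAP1 did not pass. The mean log2 value of CLTRN went from 6.13 at day 0 to 11.11 at day 5. Near NMB on chromosome 15, ZSCAN2 fell by 1.36 ± 0.31 (adjusted p = 0.0206), lost without day 0 replicate 1, 2 or 3 or day 5 replicate 1 or 2 (adjusted p 0.0511 to 0.0778). WDR73, SCAND2P, SEC11A, ZNF592 and ALPK3 did not pass. For NMBR on chromosome 6 the nearest measured genes on 1 side were far off, with CITED2, TXLNB and HECA 30, 33 and 34 genes away. CITED2 differed by 1.29 (limma adjusted p = 0.12) and TXLNB by -1.37 (adjusted p = 0.114). HECA, ADGRG6, HIVEP2 and AIG1 did not pass either.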

How the data were processed

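RNA depleted of ribosomal RNA was hybridised to 16 arrays, per the labels' protocols. The authors deposited 1 linear intensity per gene-level probe set and array, from -0.273 to 30307, with array medians of 245.1 to 246.3; the authors' build is hg18, per the submitters' processing notes. How probes were summarised, corrected and normalized is not given in the sources used here. Of 18495 probe sets, 14577 carried 1 symbol, 2849 several and 1069 none; 636 values were below 0. Precision is limited by how many arrays there are, as arrays have no read depth.

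The scale of the analysis was log2(intensity + 1), with technical arrays averaged to leave 14 samples. All 4 groups entered 1 linear model of limma 3.58.1 (lmFit, eBayes; R 4.3.3; 10 residual and 3.00 prior degrees of freedom), with Benjamini-Hochberg adjustment over all probe sets at 0.05. The code was tested on simulated data. Differences are given ± SE. Samples were grouped by their titles. Same-numbered samples were checked for pairing by the correlation of their deviations from group means: all 3 pairs of days 1 and 3 were over 0.1 (0.188, 0.509 and 0.366), and every other pair of days held at least 1 at or below it (-0.284 to 0.646 over all). No label states that a number marks a shared batch.

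The 4 members, and the 15 lists with 297 genes (258 with a probe set of their own, 15 only on shared ones, 24 with none), were chosen with earlier results of these data known. The named genes followed a rule: the members, fixed partners by role, up to 3 genes per list with the largest difference past the test at day 5, the genes most and least like GRP or most like NMB, and the 3 nearest measured genes on each side of each member. The text gives a selection of their values; MIXL1, CXCR4, CER1, GATA4 and FOXA1 are outside the rule. Genes on shared probe sets are not named, except GRPR. Alternatives were either technical array alone, a random block for the sample over 16 arrays, a replicate block, quantile normalization, a fit of the 2 groups compared, median centring, a pseudocount of 16, leaving out the dimmest 25%, a trended robust fit, array weights, the most variable probe set per gene, and leaving out each sample. Figures used matplotlib 3.10.9. Promoter windows came from RefSeq.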

Additional observations from a re-analysis of the deposited data

Results flagged for a closer look

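In 11 of 184 groups of 4 samples 1 sample stood far from the other 3, by its gap over the group's range (Dixon's test). Chance flags about 1 in 20 such groups. Values are log2(intensity + 1), and no cause was tested. NMB was 6.95 in day 5 replicate 1 and 7.76 to 7.81 in the others. Replicate 4 of day 0 stood apart for 5 genes: ECE1 (10.42), PRKCA (9.31), CHGA (7.87), RGS5 (8.80) and NMU (7.72). Replicate 3 of day 0 did so for DNMT3B (13.04) and EPSTI1 (5.90). Replicate 2 of day 5, the sample with the highest GRP, did so for SLC46A3 (8.42), LMNTD1 (9.84) and SYAP1 (10.47).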

How the results depend on the processing

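None of the alternatives gave GRPR, NMB or NMBR a call. GRP between days 5 and 0 was 4.995, and between days 5 and 1 4.80, with a pseudocount of 16. Leaving out 1 sample gave GRP -0.04 to 0.98 (day 1 against day 0), 2.45 to 4.30 (day 3), 5.89 to 6.70 (day 5), 2.15 to 3.99 (day 3 against day 1), 2.01 to 3.85 (day 5 against day 3) and 5.32 to 6.39 (day 5 against day 1). It gave GRPR -1.27 to -0.68 at day 1, -0.71 to -0.22 at day 3 and -1.17 to -0.68 at day 5. It gave NMB -0.87 to 0.33, -0.97 to -0.33 and -0.29 to 0.35, and NMBR -0.42 to 0.042, -0.084 to 0.28 and 0.02 to 0.20, for days 1, 3 and 5. NMB turned to 0.018 at day 1 with array weights and to -0.14 at day 5 with technical replicate 2 alone; NMBR at day 3 turned to -0.032 with technical replicate 2 alone and to -0.0026 with array weights. Pathway genes past the test were 0 to 11 at day 3 and 8 to 18 at day 5 when 1 sample was left out. With array weights they were 12 at day 1, 22 at day 3 and 26 at day 5. The weights ran from 0.108 (day 3 replicate 2) and 0.149 (day 5 replicate 2) to 4.57 (day 1 replicate 1). Among these alternatives, the share of all probe sets that passed was counted only without day 3 replicate 2. Nothing is therefore read from the other counts, and the cause of their change was not tested.

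By the check of their deviations, days 1 and 3 were the only days where all same-numbered pairs were over 0.1. A differently numbered pair of these days reached 0.416, and a same-numbered pair of days 3 and 5 reached 0.646. The check therefore cannot settle which samples were paired. With the replicate block GRPR, NMB and NMBR had 0 calls in the 6 comparisons, day 3 against day 1 included. GRPR at day 5 was -0.88 (limma adjusted p = 0.116). The pathway count with the block was 16 at day 5 and 0 at days 1 and 3. The share of all probe sets that passed with it was not counted, so nothing is read from the 16. Of the named genes DPPA4 alone gained a call with the block (limma adjusted p = 0.0434).

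Named genes that did not pass turned sign at day 5 against day 0 with array weights: SEC11A (-0.10), ECE1 (0.35), GNAQ (0.31), GRK2 (0.33), ZNF532 (0.30), CPLX4 (-0.26), LMAN1 (0.23), ZRSR2 (0.38), PIR (-0.34), SYAP1 (0.11), ZNF592 (0.45) and HECA (0.30). With technical replicate 1 alone BRS3 was 0.37 and MALT1 -0.053, with technical replicate 2 alone OR5I1 was -0.0036 and PEAK3 -0.028, and with a pseudocount of 16 S100G was 0.0095. Leaving out 1 sample also spanned 0 for BRS3 (-0.26 to 0.064), PAM (-0.0024 to 0.25), SEC11A (-0.062 to 0.10), ECE1 (-0.49 to 0.21), GNAQ (-0.34 to 0.24), GRK2 (-0.38 to 0.13), GALNT15 (-0.090 to 0.33), PEAK3 (-0.042 to 0.26), ZNF532 (-0.38 to 0.087), MALT1 (-0.090 to 0.19), LMAN1 (-0.30 to 0.20), ZRSR2 (-0.38 to 0.40), PIR (-0.21 to 0.57), S100G (-0.79 to 0.22), SYAP1 (-0.25 to 0.15), ZNF592 (-0.53 to 0.22) and HECA (-0.22 to 0.22). EDNRB lost its call with technical replicate 2 alone (limma adjusted p = 0.062) and with 16 arrays and a random block (0.0528), and PLCB2 with only the 2 groups compared (0.063). HAND1 lost it with quantile normalization (0.0503) and with the 2 groups (0.0529), and DNMT3B with the 2 groups (0.0574). Array weights gave calls to MME (0.0192), CHGA (0.0295), DPPA4 (0.000243), WDR73 (0.0376), SCAND2P (0.0314), ALPK3 (0.0403), CITED2 (0.00114) and AIG1 (0.0323), and the fit of the 2 groups to DPPA4 (0.0251) and CITED2 (0.0475).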
